A study of Rattus norvegicus with 12 samples.

Results

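Dbp, Tef and Hlf are the 3 PAR bZIP transcription factors (a leucine-zipper family with a proline- and acid-rich domain), and Bhlhe41 is a basic helix-loop-helix repressor. Their transcripts are described here in rat kidney cortex. The members were all probe sets (the array's groups of short probes for 1 transcript) whose annotation names 1 of these 4 genes alone. That gave 9 of 31042 probe sets, for 4 of 14217 genes named in this way: 1 for Dbp, 3 for Tef, 4 for Hlf and 1 for Bhlhe41. The genes were chosen by these same array signals, because they were higher in diabetic rats at 10 weeks of age and not at 20 weeks. No numerical threshold was part of that choice. The diabetes differences at both ages, and the change of that difference with age, are therefore given for the members as a description without a test.

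The arrays fall into 4 groups of 3: diabetic and nondiabetic rats of 10 weeks, and diabetic and nondiabetic rats of 20 weeks. All were male littermates with free access to food and water. Diabetic rats had 65 mg/kg of streptozocin, a toxin of pancreatic beta cells, into a vein at 4 weeks of age (the 10-week group) or at 14 weeks (the 20-week group). An insulin palmitate pellet followed after 3 days, and blood glucose was held at 350 to 450 mg/dl over the 6 weeks of the protocol, per the labels. Nondiabetic rats had the vehicle injection and a palmitate vehicle pellet on the same schedule. Every diabetic group thus carried streptozocin, insulin and high glucose together, and each age group is also an age at which diabetes began. The time of day at which tissue was taken is not given in the sources used here.

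The PAR bZIP factors stand at the output end of the circadian clock. CLOCK and BMAL1 act through E-box elements on the genes of their own repressors (the PER and CRY proteins), of the REV-ERB receptors and of DBP. DBP, TEF and HLF then activate genes that carry a D-box, and NFIL3 represses the same element. BHLHE41 and its relative BHLHE40 compete at E-boxes and damp CLOCK and BMAL1. In mice the 3 PAR bZIP factors together control detoxifying enzymes in liver and kidney, and Dbp is among the transcripts with the widest daily swing in many tissues.

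The start regions of 3 of the 4 member genes were at hand, and that of Per2, a clock gene known to carry a D-box, is set beside them. Each is the RefSeq window of 300 bases (250 before to 50 after the annotated start, build GRCr8), read 5′ to 3′ on the gene's strand. Capitals mark an E-box (CACGTG) or a D-box (TTATGTAA or TTACGTAA), each searched on both strands. The windows lie at chr1:105312006-105312305 for Dbp and chr7:115206577-115206876 for Tef, both on the plus strand. Those of Bhlhe41 and Per2 lie at chr4:180569306-180569605 and chr9:99496944-99497243, both on the minus strand.
Dbp: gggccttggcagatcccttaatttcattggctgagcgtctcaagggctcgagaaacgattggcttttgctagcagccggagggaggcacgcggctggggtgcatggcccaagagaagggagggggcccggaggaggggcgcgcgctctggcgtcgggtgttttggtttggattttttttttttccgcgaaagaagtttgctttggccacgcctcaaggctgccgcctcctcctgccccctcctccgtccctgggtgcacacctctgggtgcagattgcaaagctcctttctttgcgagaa
Tef: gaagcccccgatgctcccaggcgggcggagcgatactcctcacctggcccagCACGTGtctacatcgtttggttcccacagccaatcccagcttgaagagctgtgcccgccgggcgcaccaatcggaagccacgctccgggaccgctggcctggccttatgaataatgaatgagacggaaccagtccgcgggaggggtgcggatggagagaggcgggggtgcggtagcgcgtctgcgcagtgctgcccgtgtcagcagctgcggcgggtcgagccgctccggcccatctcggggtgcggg
Bhlhe41: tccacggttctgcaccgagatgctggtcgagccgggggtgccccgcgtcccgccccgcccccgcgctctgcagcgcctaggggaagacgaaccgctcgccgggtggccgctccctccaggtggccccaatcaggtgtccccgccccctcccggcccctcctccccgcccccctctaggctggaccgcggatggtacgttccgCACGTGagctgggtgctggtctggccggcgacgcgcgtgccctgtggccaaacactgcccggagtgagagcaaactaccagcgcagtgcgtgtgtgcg
Per2: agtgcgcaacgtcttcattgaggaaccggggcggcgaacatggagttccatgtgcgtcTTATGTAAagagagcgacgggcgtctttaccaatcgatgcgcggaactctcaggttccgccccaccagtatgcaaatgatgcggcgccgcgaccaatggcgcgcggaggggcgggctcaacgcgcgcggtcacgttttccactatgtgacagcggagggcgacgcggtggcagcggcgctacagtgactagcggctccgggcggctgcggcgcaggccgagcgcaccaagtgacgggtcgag
The Tef window holds an E-box 198 bases before the start and the Bhlhe41 window 1 at 48 bases before it. The Dbp window holds neither motif. The Per2 window holds a D-box 192 bases before the start. Of all 33469 RefSeq windows of this length, 6.42% hold the E-box and 1.01% a D-box. A match is a stretch of letters and not a measured binding site.

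All non-control probe sets of the 12 arrays correlated at r of 0.907 to 0.928 between arrays. The trimmed mean signal was 500.2 on each array, so every difference is relative to the other transcripts. The array labelled diabetic replicate 1 at 10 weeks has a treatment text that names a vehicle pellet. The ratio of 3′ to 5′ Gapdh signal, which rises as RNA degrades, averaged 1.68 at 20 weeks and 1.45 at 10 weeks, with ranges of 1.42 to 2.09 and 1.41 to 1.495 (exact permutation test, two-sided p = 0.013, 6 arrays each). The highest value was that of nondiabetic replicate 1 at 20 weeks. Proximal tubule markers (5 of 5), thick ascending limb markers (2 of 2) and collecting duct markers (4 of 4) were above the limit for dim probe sets (a geometric mean signal of 70.9), and 0 of 3 adrenal cortex markers were. Summed markers of collecting duct and fat were higher in diabetic than in nondiabetic rats at both ages with no overlap (fat, 2 of 3 above the limit and Lep below it: 358 to 509.6 in diabetic and 186 to 331 in nondiabetic rats at 10 weeks, 453 to 782 in diabetic and 214 to 274 in nondiabetic rats at 20 weeks), and podocyte markers were lower. Aqp2 is most of the collecting duct sum, and Fabp4 moved the fat sum at 10 weeks while Adipoq overlapped (log2 difference 0.06 ± 0.21). At 20 weeks Adipoq and the brightest Slc4a1 probe set were also higher on every diabetic array. Of the podocyte markers Nphs1 alone separated at 10 weeks. By their brightest probe sets Nphs1, Podxl and Wt1 were all lower with no overlap at 20 weeks. Leukocyte markers were 1275 to 1568 in diabetic and 864 to 1155 in nondiabetic rats at 20 weeks and overlapped at 10 weeks. Endothelial markers were 5107 to 5876 in diabetic and 6123 to 6960 in nondiabetic rats at 20 weeks, with no overlap, and overlapped at 10 weeks. Of these, Kdr alone separated at 20 weeks (log2 difference −0.29 ± 0.11), while Pecam1 (−0.36 ± 0.18) and Emcn (−0.21 ± 0.09) overlapped. Pecam1 had 0.40 ± 0.18 at 10 weeks. Among the leukocyte markers Csf1r alone separated at 20 weeks. The part of these markers in the member differences was not tested. In whole cortex, fewer cells of a type and less RNA per cell cannot be told apart. Of the 9 member probe sets 8 were above the limit. The ninth, Hlf 1384811_at, had signals of 3.5 to 56.2 on the 12 arrays and was not tested.

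Dbp, a transcript read out directly by the clock, had the widest range of the tested members relative to its level. Its 1 probe set, 1387874_at, gave signals of 844, 1377 and 794 in diabetic rats and 407, 695 and 412 in nondiabetic rats at 10 weeks. At 20 weeks the signals were 208, 192 and 264 in diabetic rats and 413, 541 and 364 in nondiabetic rats. The groups did not overlap at either age: all 3 diabetic arrays were above the nondiabetic arrays at 10 weeks and all 3 were below them at 20 weeks. Means were 1005 ± 323 in diabetic and 505 ± 165 in nondiabetic rats at 10 weeks, and 221 ± 37.6 in diabetic and 439 ± 91.6 in nondiabetic rats at 20 weeks (SD, n = 3 each). The 10-week diabetic group was thus the highest and the 20-week diabetic group the lowest, and the nondiabetic groups between them overlapped each other but neither diabetic group. The log2 difference, diabetic minus nondiabetic, was 0.99 ± 0.25 (SE of the limma model) at 10 weeks, 1.99-fold higher, and −0.98 ± 0.25 at 20 weeks, 1.98-fold lower. Without diabetic replicate 1 at 10 weeks the difference at that age was 1.10. That array lay below its group mean for Dbp, Tef and Bhlhe41 (log2 deviations of −0.206, −0.0985 and −0.140, brightest probe sets). For Hlf it lay above the mean (0.145), so without it the Hlf difference is smaller and the others are larger.

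Bhlhe41 was high in a single group, diabetic rats of 10 weeks. Probe set 1368511_at had signals of 389, 487 and 416 in diabetic rats and 140.2, 222 and 206 in nondiabetic rats at 10 weeks. At 20 weeks the signals were 111, 197 and 271 in diabetic rats and 195, 216 and 162 in nondiabetic rats. The 10-week diabetic group stood above every other array of the study, with a mean of 430.5 ± 50.5. The means of the other 3 groups lay between 189.5 and 193, and their arrays overlapped. The log2 difference was 1.20 ± 0.29 at 10 weeks (2.31-fold higher) and −0.07 ± 0.29 at 20 weeks. The diabetic arrays at 20 weeks were spread widely: the difference there was 0.28 without their replicate 1 and −0.36 without their replicate 3.

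Tef, the thyrotroph embryonic factor, differed less. Its brightest probe set, 1390819_at, gave 964, 1144 and 996 in diabetic rats and 731, 904 and 859.6 in nondiabetic rats at 10 weeks. At 20 weeks it gave 763, 676 and 948 in diabetic rats and 1022, 955 and 989 in nondiabetic rats. Diabetic arrays were all above the nondiabetic ones at 10 weeks and all below them at 20 weeks, as for Dbp, with log2 differences of 0.32 ± 0.13 and −0.33 ± 0.13. Means were 1035 ± 96.4 in diabetic and 832 ± 89.9 in nondiabetic rats at 10 weeks, and 796 ± 139 in diabetic and 989 ± 33.7 in nondiabetic rats at 20 weeks. The arrays of the 2 higher groups (diabetic at 10 weeks, nondiabetic at 20 weeks) overlapped each other, and so did those of the 2 lower groups.

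The other Tef probe sets were dimmer. Probe set 1385374_at averaged 243 ± 37.9 in diabetic rats and 184 ± 39.962 in nondiabetic rats at 10 weeks, and 155 ± 26.9 in diabetic rats and 221 ± 23.9 in nondiabetic rats at 20 weeks. Its log2 differences were 0.41 ± 0.22 at 10 weeks, where the groups overlapped, and −0.52 ± 0.22 at 20 weeks, where all diabetic arrays were lower. Probe set 1369919_at lay near the limit for dim probe sets, with signals of 43.7 to 101.5, and its groups overlapped at both ages. The 3 Tef probe sets followed each other loosely, with r of 0.240 to 0.586 over the 12 arrays (a description: they share arrays and group differences). By deviations from the group means r was −0.203 for 1390819_at with 1385374_at, 0.447 for 1390819_at with 1369919_at and −0.195 for the remaining pair.

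Hlf, the hepatic leukemia factor, was represented by 3 tested probe sets, which correlated at r of 0.627 to 0.798 over the 12 arrays. This too is a description, since they share arrays and group differences. By deviations from the group means r was 0.370 to 0.620. Probe set 1385585_at, the brightest, gave 1469, 1470.2 and 1086 in diabetic rats and 1003, 974 and 1061 in nondiabetic rats at 10 weeks. At 20 weeks it gave 1489, 1109.9 and 812 in diabetic rats and 1473, 1497 and 1359 in nondiabetic rats. All diabetic arrays were above the nondiabetic ones at 10 weeks (0.39 ± 0.18 on the log2 scale), and the groups overlapped at 20 weeks (−0.39 ± 0.18), where the diabetic arrays spread over nearly the whole range of the probe set. Means were 1342 ± 222 in diabetic and 1013 ± 44.5 in nondiabetic rats at 10 weeks, and 1137 ± 339 in diabetic and 1443 ± 74.0 in nondiabetic rats at 20 weeks. From the highest down the order was nondiabetic at 20 weeks, diabetic at 10 weeks, diabetic at 20 weeks and nondiabetic at 10 weeks, and each group overlapped its neighbours in that order.

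Hlf probe set 1374709_at gave 724, 945 and 679 in diabetic rats and 496, 444 and 678 in nondiabetic rats at 10 weeks. At 20 weeks it gave 716, 736 and 538 in diabetic rats and 801, 921 and 945 in nondiabetic rats. There was no overlap at either age, with diabetic arrays higher at 10 weeks (0.55 ± 0.18) and lower at 20 weeks (−0.43 ± 0.18). The nearest arrays at 10 weeks were almost equal, at 679.2 in diabetic and 677.5 in nondiabetic rats. Probe set 1386641_at overlapped at both ages, with log2 differences of 0.44 ± 0.20 and −0.13 ± 0.20. Its 20-week difference was 0.04 without nondiabetic replicate 3 and 0.08 without diabetic replicate 3 of that age.

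**Figure D1:**
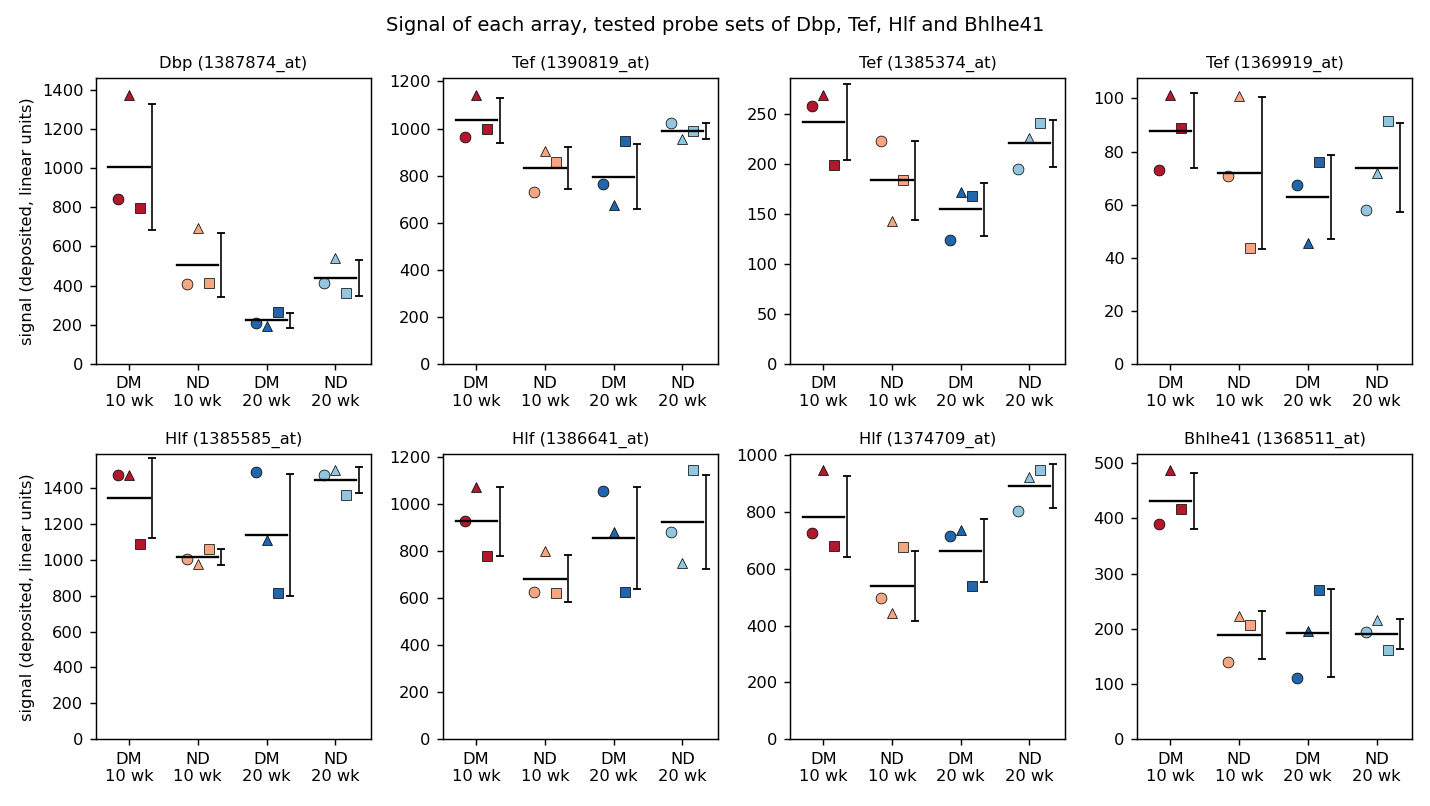
Signal of the 8 tested probe sets of Dbp, Tef, Hlf and Bhlhe41 (linear scale from 0, 1 panel each) in diabetic (DM) and nondiabetic (ND) rats at each age. Points are arrays (circle replicate 1, triangle 2, square 3), horizontal lines are means and bars are ± SD (n = 3). The Bhlhe41 panel shows 1 group above all others, and the Dbp panel shows diabetic arrays above nondiabetic ones at 10 weeks and below them at 20 weeks.

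Of the 8 tested member probe sets, 5 had all diabetic arrays above all nondiabetic arrays at 10 weeks, a pattern found in 7.47% of the 18625 probe sets tested, and 0 had the opposite (9.52% of all). At 20 weeks 4 of the 8 had all diabetic arrays below all nondiabetic arrays, found in 10.9% of all, and 0 had the opposite (10.1% of all). Since this pattern chose the genes, nothing is read from these counts. The change of the diabetes difference between the ages (10 minus 20 weeks) was 1.98 ± 0.36 for Dbp, 1.27 ± 0.41 for Bhlhe41, 0.64 ± 0.18 for the brightest Tef probe set and 0.78 ± 0.26 for the brightest Hlf probe set, all on the log2 scale. Another scaling between arrays, on the median, shifted the median of all 18625 differences by 0.11 at 10 weeks; with it the Dbp difference there was 1.10 and the Bhlhe41 difference 1.32.

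The age difference averaged over both conditions (20 minus 10 weeks) is estimated independently of both diabetes differences in this balanced design, so it was tested for the members. It averages the age differences of the diabetic and the nondiabetic rats, which for the members were unlike. For Dbp the average over both conditions was 2.24-fold lower at 20 weeks (log2 difference −1.16 ± 0.18, limma, adjusted p = 0.0201). It was the only member probe set of 8 that passed an adjusted p of 0.05 (Benjamini-Hochberg over 18625 probe sets), where 0.601% of all did (0.226% higher and 0.376% lower). The age difference was uneven between the conditions: −2.15 ± 0.25 in diabetic rats and −0.17 ± 0.25 in nondiabetic rats, where the arrays overlapped. The called average thus came mostly from the diabetic groups, and the gap between the conditions is the pattern that chose the gene. It is no call of a fall in nondiabetic rats. Bhlhe41 had −0.61 ± 0.20 (limma, adjusted p = 0.202), with −1.24 ± 0.29 in diabetic rats and 0.03 ± 0.29 in nondiabetic rats. The 3 Tef probe sets had −0.20 to −0.07 and the 3 Hlf probe sets 0.12 to 0.25 (limma, adjusted p of 0.397 to 0.798), so these were not separable from the spread between arrays.

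The Dbp age call was lost without nondiabetic replicate 2 at 10 weeks (log2 difference −1.03, limma, adjusted p = 0.0536) and without diabetic replicate 3 at 10 weeks (−1.23, adjusted p = 0.0513). It was also lost without both doubted arrays, diabetic replicate 1 at 10 weeks and nondiabetic replicate 1 at 20 weeks (−1.20, adjusted p = 0.0790). With the Gapdh 3′/5′ ratio, higher at 20 weeks, as a covariate, the difference was −1.16 with an adjusted p of 0.169. Of the distal convoluted tubule markers, Calb1 was also lower at 20 weeks (−0.59 ± 0.11, limma, adjusted p = 0.0308), while Slc12a3 had 0.03 ± 0.13 (adjusted p = 0.954). The summed signal of Slc12a3, Calb1 and Pvalb, most of it Calb1, was 12613 to 14722 in diabetic and 10849 to 11546 in nondiabetic rats at 20 weeks, against 14727 to 19708 in diabetic and 13976 to 21336 in nondiabetic rats at 10 weeks. Pvalb itself was below the limit for dim probe sets. The part of Calb1-expressing cells in the Dbp difference was not tested.

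The other genes of the clock, its relatives and its targets were read from lists of 42 genes, of which 36 had a probe set of their own and 33 were tested by their brightest one. At 10 weeks 1 of the 33, the target Aqp2, was higher in diabetic rats and 0 were lower, against 0.306% of all probe sets called (0.123% higher and 0.183% lower), and the median log2 difference of the lists was 0.08 against −0.02 over all probe sets. At 20 weeks 3 were higher and 3 lower, against 2.84% called (1.22% higher and 1.62% lower), with medians of −0.00090 in the lists and −0.0043 over all. In the change of the diabetes difference between the ages 0 of the 33 passed, and 0 of all 18625 (0%) did in limma, with 1480 at an unadjusted p under 0.05. With age 0 of the 33 passed. Of these 33, the 13 core clock genes (activators, E-box repressors, the ROR and REV-ERB loop and Nfil3) had 0 calls and a median of −0.18 at 10 weeks, and 1 higher, 2 lower and a median of −0.15 at 20 weeks. Over all probe sets, scaling on the median moved the split of the 10-week calls to 34 higher and 9 lower (23 and 34 as deposited) and that of the age calls to 27 and 99 (42 and 70).

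Among the E-box repressors, the feedback arm of the clock, 6 of 7 genes were measured and none was called at 10 weeks. At 20 weeks Per2 and Bhlhe40 were lower in diabetic rats and Per1 was higher. Bhlhe40, the closest relative of Bhlhe41, had signals of 606, 499 and 609 in diabetic and 702, 728 and 801 in nondiabetic rats at 10 weeks, and 391, 319.7 and 381 in diabetic and 919, 831 and 928 in nondiabetic rats at 20 weeks. Its diabetic arrays were the lower ones at both ages, where those of Bhlhe41 were the higher ones at 10 weeks. The log2 difference of Bhlhe40 was −0.38 ± 0.12 at 10 weeks (limma, adjusted p = 0.258) and −1.30 ± 0.12 at 20 weeks (adjusted p = 0.000298).

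Per2, whose window above holds a D-box, had signals of 998, 1291 and 1150.1 in diabetic and 1396, 1262 and 1113 in nondiabetic rats at 10 weeks, and 448, 729.6 and 504 in diabetic and 1256, 1404 and 1832 in nondiabetic rats at 20 weeks. The log2 difference was −0.13 ± 0.19 at 10 weeks (limma, adjusted p = 0.839) and −1.43 ± 0.19 at 20 weeks (adjusted p = 0.00207). Per1 ran the other way at 20 weeks. Its signals were 369, 379 and 280.0 in diabetic and 184, 169 and 226 in nondiabetic rats at 10 weeks, and 442, 482 and 388 in diabetic and 268, 221 and 231 in nondiabetic rats at 20 weeks. Diabetic arrays were above nondiabetic ones at both ages, by 0.83 ± 0.17 at 10 weeks (limma, adjusted p = 0.075) and 0.86 ± 0.17 at 20 weeks (adjusted p = 0.0203). The Per1 call was lost without nondiabetic replicate 2 or 3, or diabetic replicate 1 or 2, at 20 weeks (adjusted p of 0.0537 to 0.0836).

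Per3 came nearest to the members among the clock-list genes (r = 0.851 with their mean profile over 12 arrays, a description). It gave 340.4, 390.1 and 281 in diabetic and 227, 179 and 159 in nondiabetic rats at 10 weeks, and 95.3, 122.97 and 181 in diabetic and 224, 267 and 182 in nondiabetic rats at 20 weeks. Diabetic arrays were all above the others at 10 weeks and all below them at 20 weeks. The nearest arrays at 20 weeks were almost equal, at 181.2 in diabetic and 182.1 in nondiabetic rats. Its log2 differences of 0.84 ± 0.25 and −0.79 ± 0.25 did not pass (limma, adjusted p = 0.227 and 0.124), nor did the change between the ages (1.63 ± 0.35, adjusted p = 0.400). The cryptochromes Cry1 and Cry2 did not pass at either age.

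The activators Clock, Bmal1 and Npas2 did not pass at either age (0 of 3). At 10 weeks their median difference was −0.58, against −0.02 over all probe sets. Bmal1, the partner of CLOCK, had signals of 193, 154 and 274 in diabetic and 306, 249.96 and 355 in nondiabetic rats at 10 weeks, and 344, 387 and 309 in diabetic and 267, 309 and 355 in nondiabetic rats at 20 weeks. The log2 difference of Bmal1 was −0.58 ± 0.21 at 10 weeks (limma, adjusted p = 0.333), and that of Npas2, which can replace CLOCK, was −0.80 ± 0.19 (adjusted p = 0.121). At 20 weeks they were 0.16 ± 0.21 and 0.00 ± 0.19.

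The REV-ERB genes Nr1d1 and Nr1d2, repressors of Bmal1, and Rora, its activator, did not pass either (0 of 3 at each age). Nr1d2 had 2368, 3076 and 2344 in diabetic and 1775, 2017 and 1742 in nondiabetic rats at 10 weeks, with no overlap (0.48 ± 0.18, limma, adjusted p = 0.339). At 20 weeks its groups overlapped (−0.15 ± 0.18). Nfil3, which opposes the PAR bZIP factors at the D-box, had log2 differences of −0.25 ± 0.36 at 10 weeks and 0.30 ± 0.36 at 20 weeks, with overlapping arrays at both ages.

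**Figure D2:**
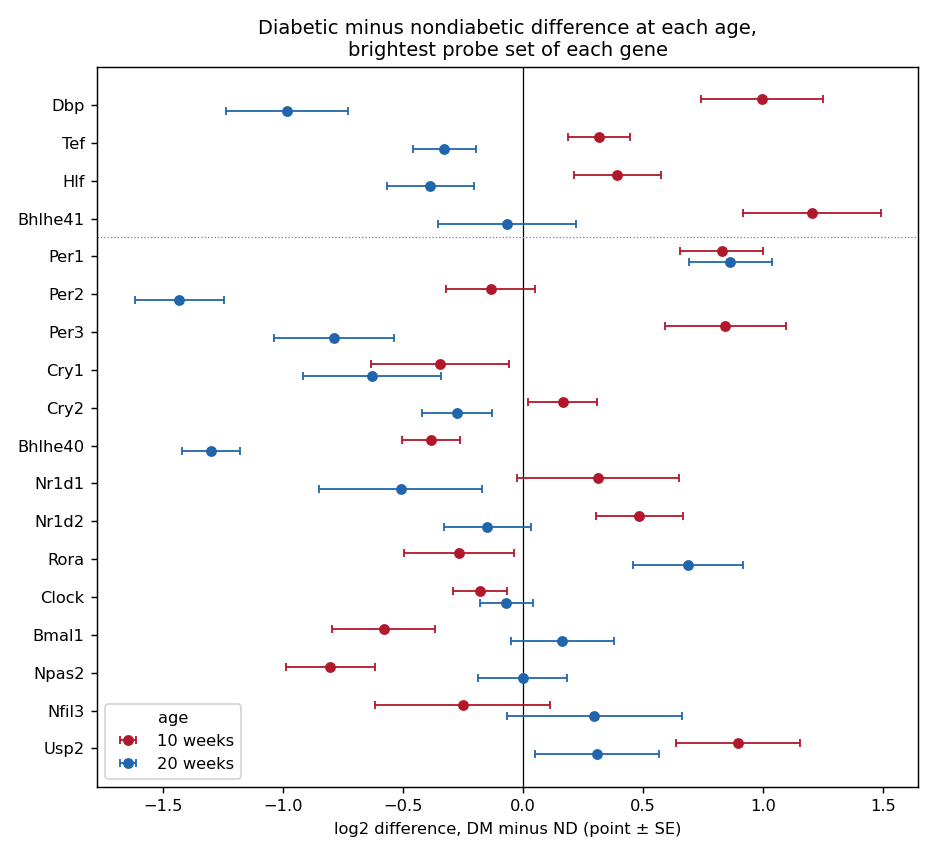
Log2 difference in signal, diabetic minus nondiabetic, for the brightest probe set of the 4 member genes and of 14 other clock genes at 10 weeks (red) and 20 weeks (blue). Points are limma estimates from 3 arrays a group, bars are ± SE and the vertical line marks no difference. Dbp and Per3 lie to the right of the line at 10 weeks and to the left at 20 weeks, Per1 lies to the right at both ages and Per2 to the left at 20 weeks.

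Of 8 genes listed as targets of PAR bZIP factors in mice, 5 were tested. Aqp2, the vasopressin-regulated water channel of the collecting duct, was the only 1 called at 10 weeks, with 6405, 8559 and 7867 in diabetic and 5191, 4292 and 4664 in nondiabetic rats (0.68 ± 0.12, limma, adjusted p = 0.0433). The call was lost in 17 of 23 alternative settings, leaving out any 1 of the 6 arrays of that age among them (adjusted p of up to 0.195). Aqp2 was also higher on every diabetic array than on the nondiabetic ones at 20 weeks (0.41 ± 0.12, adjusted p = 0.106). The summed signal of the 4 collecting duct markers, Aqp2 among them, was 9673 to 12580 in diabetic and 7364 to 9281 in nondiabetic rats at 10 weeks, and 8875 to 10199 in diabetic and 7158 to 8331 in nondiabetic rats at 20 weeks. Aqp2 is most of that sum. The other markers overlapped between the groups at 10 weeks, with log2 differences of 0.17 ± 0.16 for Aqp3, 0.12 ± 0.15 for Scnn1b and 0.25 ± 0.21 for Slc4a1. At 20 weeks Aqp3 had −0.10 ± 0.16, Scnn1b −0.11 ± 0.15 and Slc4a1 0.82 ± 0.21, and none of the 3 passed at either age in limma.

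Cyp4a1, a fatty acid omega-hydroxylase, was the target called at 20 weeks, with 5202, 5722 and 7312 in diabetic and 3127, 2539.6 and 2909 in nondiabetic rats (1.08 ± 0.19, limma, adjusted p = 0.0124). It lost the call without nondiabetic replicate 2 (adjusted p = 0.0531) or diabetic replicate 3 (adjusted p = 0.0576) at that age. Alas1, the first enzyme of heme synthesis, Por, the electron donor of cytochromes P450, and Avpr2, the vasopressin receptor of the collecting duct, did not pass at either age. The median log2 difference of the 5 targets was 0.41 at both ages, against −0.02 at 10 weeks and −0.0043 at 20 weeks over all probe sets.

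Whether the members moved together from array to array was tested on deviations from the group mean, which the choice of genes did not use. Each gene was read by its brightest probe set alone. Over the 12 arrays, with the exact permutation of arrays within groups (1296 arrangements, smallest possible p = 0.000772, two-sided), none of the 6 pairs passed after Benjamini-Hochberg adjustment. Dbp and Tef had r = 0.645 (permutation p = 0.0424, adjusted 0.162; rho = 0.587, p = 0.0694, adjusted 0.208), and r was 0.510 without the 2 arrays farthest from the median. Dbp and Bhlhe41 had r = 0.555 (permutation p = 0.0540, adjusted 0.162; rho = 0.692, p = 0.0139, adjusted 0.0833), and r was 0.522 without those arrays. Tef and Bhlhe41 had r = 0.603 (permutation p = 0.234, adjusted 0.375; rho = 0.601, p = 0.120, adjusted 0.241). Hlf had r of −0.628 to −0.039 against the other members (permutation p of 0.250 to 0.903) and rho of −0.245 to 0.238 (p of 0.490 to 0.836). Without the 2 farthest arrays r was 0.210 for Hlf with Bhlhe41, 0.013 with Tef and −0.175 with Dbp. The arrays left out were diabetic ones at 20 weeks for Bhlhe41 and Tef, so the negative r there rested on them. Dbp and Bhlhe41 had their highest array in the same replicate of each of the 4 groups, replicate 2 in 3 of them and replicate 3 in diabetic rats at 20 weeks. Tef shared these replicates except in nondiabetic rats at 20 weeks. Hlf shared them only in diabetic rats at 10 weeks and nondiabetic rats at 20 weeks. The pair was picked for its match and its r did not pass, so nothing is read from this.

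Against the 33 clock-list genes, the within-group deviations of Dbp correlated positively with those of Cry2, Nr1d2 and Nr1d1 and negatively with those of Nfil3, Cry1 and Bmal1. These 6 are the genes with an unadjusted p under 0.05 by Pearson's r, so they were picked by their values. Cry2 had r = 0.808 (exact permutation p = 0.0100, adjusted over the 33 genes 0.0828; rho = 0.832, p = 0.000772, adjusted 0.0255). Nr1d2 had r = 0.775 (exact permutation p = 0.00154, adjusted 0.0509; rho = 0.762, p = 0.00154, adjusted 0.0255). Cry2 and Nr1d2 were the only ones of the 33 genes past an adjusted p of 0.05, and only by rank. Without the 2 arrays farthest from the median Dbp deviation, nondiabetic and diabetic replicate 2 at 10 weeks, r was 0.807 for Cry2 and 0.793 for Nr1d2.

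Nr1d1 had r = 0.775 with Dbp in the same measure (exact permutation p = 0.00617, adjusted 0.0828; rho = 0.713, p = 0.0123, adjusted 0.102). Nfil3 had r = −0.874 (exact permutation p = 0.0147, adjusted 0.0968; rho = −0.769, p = 0.0262, adjusted 0.144), and r was −0.698 without those arrays. Cry1 had r = −0.785 (exact permutation p = 0.00849, adjusted 0.0828; rho = −0.727, p = 0.0116, adjusted 0.102). Bmal1 had r = −0.772 (exact permutation p = 0.0355, adjusted 0.195; rho = −0.832, p = 0.0162, adjusted 0.107), and r was −0.575 without those arrays. The sign of these 6 correlations was the same in each of 15 alternative settings run for them. The genes were picked by their r and the settings reuse most of the arrays, so a change of sign was hardly possible. Bmal1 lost its unadjusted p under 0.05 in 10 of the 15 settings and Nfil3 in 1 (exact permutation).

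**Figure D3:**
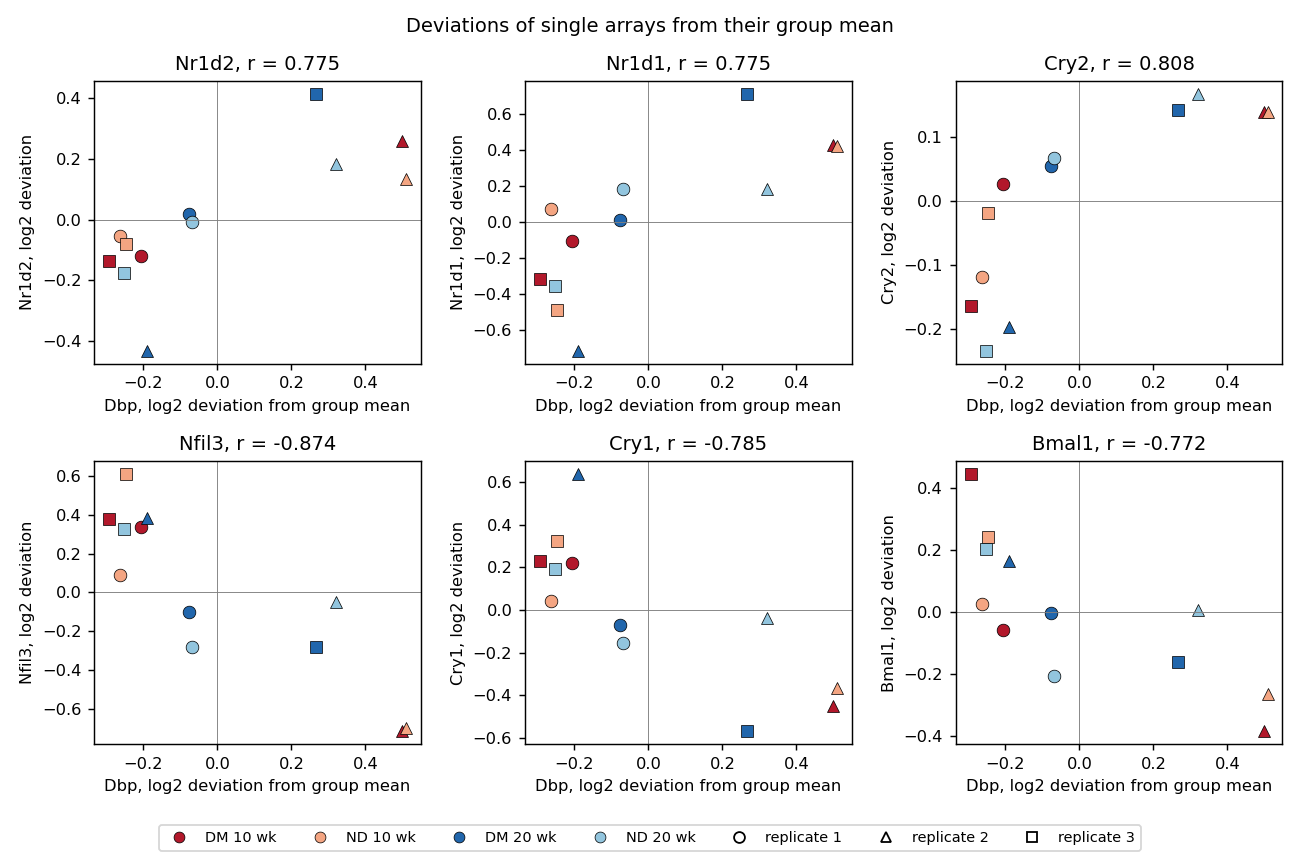
Deviation of log2 signal from the group mean on each of 12 arrays, Dbp on the horizontal axis and Nr1d2, Nr1d1, Cry2, Nfil3, Cry1 and Bmal1 on the vertical axes, coloured by group. Nr1d2, Nr1d1 and Cry2 rise with Dbp (r of 0.775 to 0.808) and Nfil3, Cry1 and Bmal1 fall (r of −0.874 to −0.772), and replicate 2 of both 10-week groups lies at the right end.

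Over all 12 arrays, 10579 other genes were ranked by the Pearson r of their log2 signal with the mean standardised profile of the 4 members (brightest probe set each). This is a description, since all share the 12 arrays and the choice of genes. The highest were Galk2, a sugar kinase (r = 0.911), Cisd3 (0.888), Xpo7, a nuclear export receptor (0.871), Ndufs3, a subunit of respiratory complex I (0.871), and Mapk8, the kinase JNK1 (0.867). Next came Aox1, aldehyde oxidase (0.856), Slc9a3, the sodium-proton exchanger of the proximal tubule (0.855), Per3 (0.851), Slc20a1, a phosphate transporter (0.848), and Slc25a15, a mitochondrial ornithine carrier (0.847). Per3 thus ranked 8th, and the next clock genes were Nr1d2 (rank 21, r = 0.805), Nr1d1 (rank 100) and Cry2 (rank 120). Slc9a3 had mean signals of 3069 in diabetic and 2481 in nondiabetic rats at 10 weeks, and 2335 in diabetic and 2926 in nondiabetic rats at 20 weeks.

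At the other end of the ranking stood Rab17 (r = −0.916), Rsu1 (−0.908), Wsb1 (−0.878), Smad1, a transducer of BMP signals (−0.857), and Camk2g, a calmodulin-dependent kinase (−0.857). Rsu1 had mean signals of 274 in diabetic and 484 in nondiabetic rats at 10 weeks, and 525 in diabetic and 297 in nondiabetic rats at 20 weeks. Bmal1 was 9th from this end (r = −0.841) and Npas2 24th (r = −0.799). By within-group deviations alone the 10 highest were Smoc1 (r = 0.952), Fcf1, Rnf121, Hoxb4, Esm1, Taf6, Paox, Arl1, Rrp12 and Gfpt2 (0.878), with no clock gene among them; Cry2 ranked 25th (r = 0.846).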

How the data were processed

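The authors deposited linear probe-set signals (intensity) of 12 single-colour arrays, which came from the scanner software GCOS, per the submitters' processing notes. The version, the signal algorithm and any genome build are not given. The deposited trimmed mean (2% at each end) was 500.2 on every array, and no further scaling was applied.

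Before the fit, 57 control probe sets were left out, 424 values below 1 were set to 1, and log2 was taken. The 40% with the lowest mean log2 signal were left out (limit 70.9), and 18625 were tested with limma 3.58.1 in R 4.3.3: 4 group means over 12 arrays (8 residual degrees of freedom), eBayes with an intensity trend, two-sided, with calls at 0.05 after Benjamini-Hochberg adjustment. Depth has no counterpart on arrays, and their number (3 a group) limits the precision. Nothing in the labels says which rat an array came from, so p-values reflect only the spread among these arrays, which may be technical.

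Gene names came from the array annotation (20826 probe sets named 1 gene), checked through RefSeq gene identifiers (20764 matched); promoter windows are RefSeq's (GRCr8). Named were all member probe sets, the clock-list genes, and the genes nearest and farthest by r. Markers and lists were compiled from general knowledge. The members and lists were chosen with earlier results of these data known. Over all tested probe sets, replicate numbers of the 4 groups did not mark pairs throughout. The fits were tested on simulated data. Alternatives were other scalings, filters, variance settings, array weights, a replicate block, a Gapdh 3'/5' covariate and arrays left out.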

Additional observations from a re-analysis of the deposited data

Results flagged for a closer look

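In 4 tested probe sets of the members and clock lists every diabetic array lay above every nondiabetic array at 10 weeks and below every nondiabetic array at 20 weeks. Over all 18625 tested probe sets, 7.47% had the 10-week part of this pattern and 10.9% the 20-week part. The share with both was not counted, and the pattern chose the member genes, so nothing is read from the count. The nearest arrays of Hlf at 10 weeks and of Per3 at 20 weeks were almost equal. On the log2 scale the 10-week difference exceeded the 20-week difference by 1.98 for Dbp, 0.64 for Tef 1390819_at, 0.98 for Hlf 1374709_at and 1.63 for Per3 1378745_at. For Dbp, Tef and Hlf the difference between the ages was not tested, because it entered the choice of the genes. For Per3 it did not pass (limma, adjusted p = 0.400 over 18625 probe sets). Rorb 1371257_at, below the limit for dim probe sets and not tested, showed the same order at signals of 4.16 to 75.4.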

How the results depend on the processing

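The main settings called 112 probe sets with age, 57 with diabetes at 10 weeks, 529 at 20 weeks and 0 in the change between the ages, and among the 33 clock-list genes 0, 1 (Aqp2), 6 and 0. The Aqp2 call, and with it the clock-list count at 10 weeks, went to 0 with quantile normalization, with no filter on dim probe sets, without the intensity trend, in a fit of only the arrays compared, with a replicate block, without both doubted arrays and with the Gapdh 3'/5' covariate. Without the intensity trend the counts were 2 (age), 7 (10 weeks) and 191 (20 weeks), and Dbp with age had −1.16 (limma, adjusted p = 0.0625). Fits of only the arrays compared gave 9 and 309 probe sets at 10 and 20 weeks. Without both doubted arrays the counts were 19, 10 and 331, and Dbp had −1.20 (adjusted p = 0.0790). The Gapdh covariate gave 7 probe sets with age, Dbp at −1.16 (adjusted p = 0.169) and 3 in the change between the ages. The stricter filter and array weights each called 1 clock-list gene with age.

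Over all tested probe sets, replicate numbers did not mark pairs throughout. Deviations of same-numbered arrays correlated at −0.151 to 0.149, over 0.1 in 4 of 18 pairs, and 6 of 18 correlated best with their own number. Between the 10-week groups replicates 2 and 3 did so (0.149 and 0.130) and replicate 1 did not (0.022). Dbp deviated there by −0.21, 0.50 and −0.29 in diabetic and −0.26, 0.51 and −0.25 in nondiabetic rats. This measure cannot exclude that some same-numbered arrays belong together, and the within-group permutations took arrays as independent. With the replicate number as a block 56 probe sets were called with age and 32 at 10 weeks, and Dbp with age kept its call (adjusted p = 0.0182). Median scaling turned the calls at 10 weeks to 34 higher and 9 lower (23 and 34 in the main setting) and those with age to 27 and 99 (42 and 70).

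With each array left out in turn the counts ran from 7 to 156 (age), 5 to 115 (10 weeks), 194 to 520 (20 weeks) and 0 to 2 (change between the ages), and for the clock lists from 0 to 1, 0 to 1 and 3 to 6 in the first 3. The 3 came without nondiabetic replicate 2 at 20 weeks. Dbp with age ran from −1.24 to −1.03, the mean within-group r of the 6 member pairs from 0.038 to 0.294. The Dbp age call held in 17 of 22 alternatives. The 16 diabetes differences of the members kept their sign in 360 of 364 alternatives, and the 4 exceptions were Hlf 1386641_at and Bhlhe41 at 20 weeks. These differences chose the genes and the alternatives reuse the same arrays, so nothing is read from this count. Alternatives for the within-group correlations of Dbp were chosen after seeing the data; Bmal1 lost its unadjusted call in 10 of 15 and Nfil3 in 1. The cause of these changes was not tested. Fits that left arrays out also had fewer arrays. Depth does not apply; signals near 70.9 limit Tef 1369919_at.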

Other observations

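Relatives of the PAR bZIP factors and genes that glucocorticoids induce were read as further clock-list genes. Of the 4 C/EBP factors, bZIP proteins that bind CCAAT boxes, 0 passed at 10 weeks and Cebpd alone passed at 20 weeks. Cebpd had signals of 435, 426 and 372 in diabetic rats at 20 weeks and 184, 153 and 139 in nondiabetic rats, a log2 difference of 1.38 ± 0.17 (limma, adjusted p = 0.00186). At 10 weeks the signals were 194, 245 and 193 in diabetic rats and 177, 161 and 145 in nondiabetic rats, with no overlap (0.38 ± 0.17, adjusted p = 0.453). Cebpb had an age difference (20 minus 10 weeks) of 0.88 ± 0.18 that did not pass (limma, adjusted p = 0.0545). The brightest probe sets of Cebpa and Cebpg had log2 differences between 0.00 and 0.20 at both ages and did not pass. Their other tested probe sets had −0.27 to 0.20 and did not pass either.

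Of 5 tested glucocorticoid-induced genes 1 was lower in diabetic rats at 20 weeks and 0 were called at 10 weeks. That gene was Klf9, a zinc-finger factor with a daily rhythm in mice. Its signals were 2784, 2734 and 2453 in diabetic rats and 3664, 3912 and 4910.5 in nondiabetic rats at 20 weeks (−0.64 ± 0.14, limma, adjusted p = 0.0333). Leaving out any 1 of diabetic replicates 1 to 3 or nondiabetic replicates 2 and 3 at 20 weeks, or diabetic replicate 3 at 10 weeks, ended this call (adjusted p of up to 0.121). Sgk1, Fkbp5, Tsc22d3 and Dusp1 did not pass at either age. Usp2, a deubiquitinase with a strong daily rhythm in mice, had signals of 722, 1142 and 529 in diabetic rats and 360.3, 525 and 359 in nondiabetic rats at 10 weeks (0.89 ± 0.26, limma, adjusted p = 0.220).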
